A study of Mus musculus with 4 samples.

Results

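The mRNA levels of 7 CC chemokine receptor genes, Ccr1, Ccr2, Ccr6, Ccr7, Ccr9, Ccr10 and Ccrl2, were examined in cells of the bronchoalveolar lavage fluid (BALF) from wild-type and S1pr2-/- mice given bleomycin. The genes are the CC-type receptors that are not usually tied to type-2 responses. Their probes were found through the RefSeq accession that the array gives for each probe. Each gene had 1 probe, so the members were 7 of 39429 gene probes, which carried 20832 named genes. All 7 were well above background on all 4 arrays and all were tested, among 27158 probes that passed the filter on dim signals.

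The data came from 4 one-colour oligonucleotide arrays, 2 for each genotype. All mice, controls included, received intraperitoneal bleomycin, a DNA-damaging agent that injures the lung and leads to fibrosis, at 0.035 U/g 2 times a week, and RNA was taken on day 22. The S1pr2-/- mice lack the sphingosine-1-phosphate receptor S1PR2 in every tissue, on a mixed background crossed back once to C57BL/6J, and the wild-type mice were their littermates, all 8 to 10 weeks old at the start. No saline arrays were analysed here, so the values compare genotypes within bleomycin and not bleomycin with its absence. The study describes the 2 RNA samples of a genotype as independent, and whether each pooled several mice is not given for the arrays, so the p-values measure the spread between these samples only.

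Chemokine receptors are G protein-coupled receptors of the cell surface that guide leukocytes along gradients of small secreted proteins. Ccr1 and Ccr2 are known for bringing monocytes and other myeloid cells to inflamed tissue, Ccr6 for positioning B cells, Th17 cells and gamma delta T cells, and Ccr7 for carrying dendritic cells and naive lymphocytes to lymph nodes. Ccr9 guides T cells to the gut, Ccr10 guides T cells and antibody-secreting cells to skin and mucosa, and Ccrl2 is an atypical receptor that holds chemerin at the cell surface without G protein signalling.

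The labels call the samples alveolar macrophages, while the RNA was prepared from all BALF cells. The 8 genes of the alveolar macrophage list, among them Siglecf and Marco, were well above background on every array, with a summed relative signal of 507 to 576. Markers of other cells were present too. The summed relative signal of the T cell list was 43.7 to 59.8 and that of the neutrophil list 57.4 to 92.4. Single probes gave much of these sums, Cd2 at 27.1 to 39.2 and Csf3r at 36.9 to 48.5. In bulk RNA, fewer cells of a type and less RNA per cell cannot be told apart. The S1pr2 probe went against the genotype labels. Its relative signal was 0.915 and 0.896 in wild-type samples, compared with 6.35 and 5.83 in those labelled S1pr2-/-. The difference was 2.75 on the log2 scale (limma, unadjusted p = 1.88e-05, adjusted p = 0.332). Of all tested probes, 0.011% had a difference this high or higher. Whether this probe lies in the disrupted part of the gene is not given in the sources used here. Every direction below therefore compares the arrays labelled S1pr2-/- with those labelled wild-type.

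Relative signal means the processed signal of a probe divided by the 75th percentile of its array, so that 1 is the level of a fairly bright probe. A difference is the mean log2 relative signal of the arrays labelled S1pr2-/- minus that of the wild-type arrays, and scaled values below 0.01 were set to 0.01 before the logarithm. The methods of the study name a floor of 0.01 before the scaling, so the value without the floor, which the deposited log2 table also gives, stands beside that of Ccr10. Probes differ in their response, so levels of different probes are not read as relative amounts of mRNA. The summed signals of lists add such probes. They do not give numbers of cells, and the weight of a probe in a sum depends on its response.

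Of the 7 receptors, 3 (Ccr1, Ccr7 and Ccr10) had both S1pr2-/- values under the lower wild-type value, against 21.8% of all tested probes, and none was higher in this way, against 20.0%. With quantile normalization these shares of all probes were 16.1% and 27.0%, with the same counts of members. Under normexp background correction 1 member was lower without overlap. The other 4 (Ccr2, Ccr6, Ccr9 and Ccrl2) overlapped between genotypes. Ccr7 alone reached an unadjusted p under 0.05 in limma, which 5.59% of all tested probes did in the lower direction and 3.99% in the higher direction. After Benjamini-Hochberg adjustment over all 27158 probes, no member and no other probe passed 0.05 (0% in either direction). The median difference of the members was -0.38, with 5 of 7 below 0, beside 0.00 over all tested probes, of which 13752 were below 0. By the rule of the study's methods, over 1.5-fold with an unadjusted p under 0.05, no member was called, against 1.62% of probes lower and 0.486% higher. With 2 arrays against 2, an exact two-sided permutation test cannot go below p = 0.333 for a single gene.

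**Figure D1:**
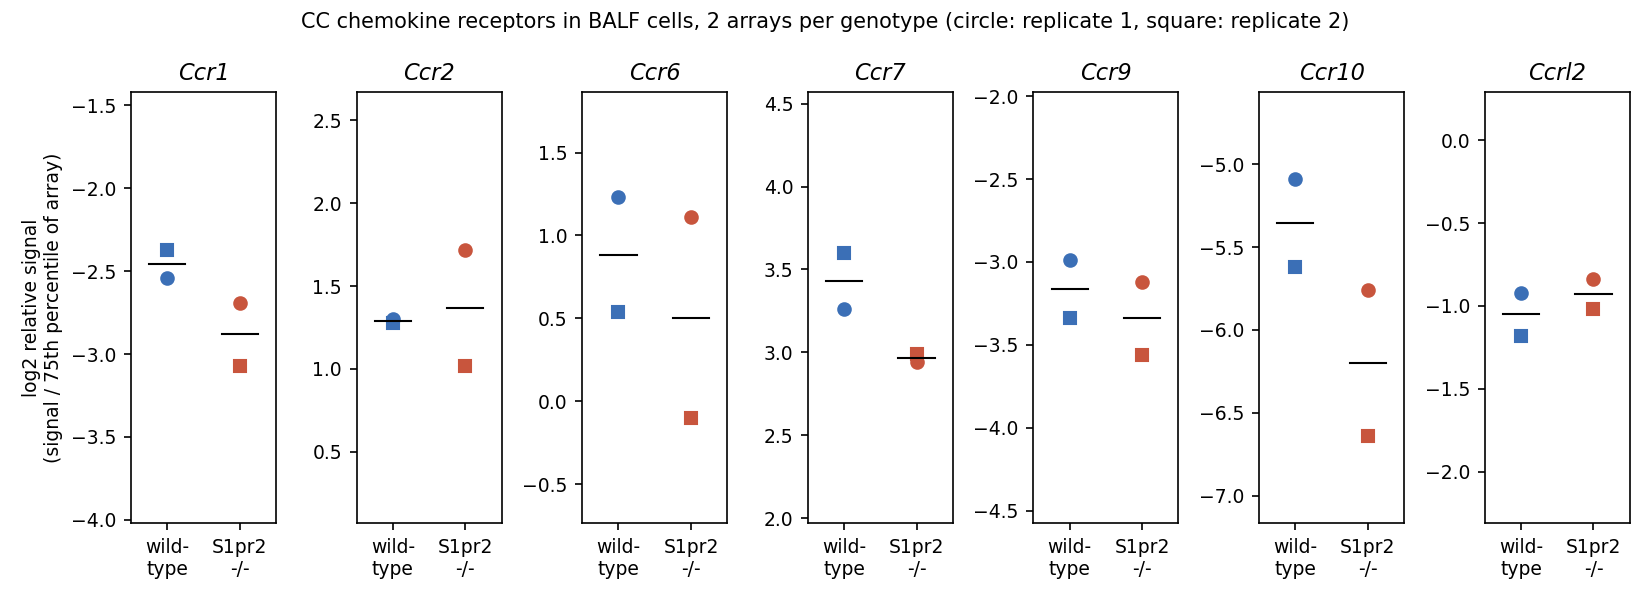
Log2 relative signal of each receptor on the 4 arrays, with circles for replicate 1, squares for replicate 2 and a line at each group mean. Every panel spans the same log2 range. Ccr1, Ccr7 and Ccr10 show no overlap between the genotypes, whereas the replicates of Ccr6 lie further apart than its group means.

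Ccr7 had the smallest unadjusted p of the members. Its relative signal was 9.61 and 12.1 in wild-type samples, compared with 7.66 and 7.92 in those labelled S1pr2-/-. Both of the latter were below both wild-type arrays and lay close together. The difference was -0.47 ± 0.143 (SE, n = 2 per genotype; limma, 95% interval -0.91 to -0.04), a level 1.39-fold lower, with an unadjusted p of 0.0406 and an adjusted p of 0.518. Without replicate 1 or replicate 2 of the arrays labelled S1pr2-/-, the unadjusted p was 0.168 or 0.142. Of all tested probes, 5.31% had a difference this low or lower. Of its ligands, which lead dendritic cells and T cells into lymphoid tissue, Ccl19 was measured. Its relative signal was 0.0640 and 0.0558 in wild-type and overlapped with 0.0526 and 0.0563 in the other genotype (difference -0.13, adjusted p = 0.685). A second probe of Ccl19 was lower without overlap, at 0.0599 and 0.0568 against 0.0498 and 0.0498 (difference -0.23, unadjusted p = 0.0293, adjusted p = 0.515). Of the T cell list, all 9 genes had a difference below 0 and 5 were lower without overlap, against 21.8% of all tested probes. The list median was -0.40. It was -0.77 without replicate 1 and -0.23 without replicate 2 of the arrays labelled S1pr2-/-. The summed signal of the list was 52.9 and 59.8 against 43.7 and 48.4. Most of it came from Cd2, at 33.9 and 39.2 against 27.1 and 36.1, which overlapped. Among the genes lower without overlap were Cd28, a costimulatory receptor, at -0.87 and Lck, the kinase of the T cell receptor, at -0.77. The dendritic cell list had 4 of 8 genes lower without overlap and none higher, against 21.8% and 20.0% of all tested probes. Its median was -0.21. The median was -0.10 without replicate 2 of the arrays labelled S1pr2-/- and 0.33 with normexp background correction. The 4 lower genes were Batf3 at -0.83, Ccl22 at -0.71, Fscn1, an actin-bundling protein of migrating dendritic cells, at -0.23 and Zbtb46 at -0.21. Cd209a, a lectin of monocyte-derived dendritic cells, and Flt3, a growth factor receptor of dendritic cells, were at 0.49 and 0.28 and overlapped. A second probe of Cd209a was higher without overlap, at 0.47, and a second probe of Flt3 overlapped at 0.02. The part of these cells in the Ccr7 difference was not tested.

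Ccr1, a receptor of monocytes and granulocytes, had a relative signal of 0.171 and 0.193 in wild-type samples, compared with 0.155 and 0.119 in those labelled S1pr2-/-. Every array of the latter was below every wild-type array, but the gap between 0.171 and 0.155 was smaller than the gap between the 2 arrays labelled S1pr2-/-. The difference was -0.42 ± 0.17 (SE, n = 2; limma, 95% interval -0.94 to 0.10, adjusted p = 0.546), or 1.34-fold. Of its ligands, Ccl6 gave 174 and 205 in wild-type and 174 and 191 in the other genotype and overlapped. Ccl9 gave 40.3 and 44.9 against 36.4 and 35.6, and Ccl3 gave 3.12 and 2.70 against 2.48 and 2.05. Both of these were lower without overlap, with differences of -0.24 (adjusted p = 0.524) and -0.36 (adjusted p = 0.544). Ccl5 overlapped, at 8.25 and 12.7 against 8.34 and 8.51, as did Ccl7, whose values stand with Ccr2. The neutrophil list had 5 of 6 genes lower without overlap, against 21.8% of all tested probes. Its median was -1.03. The median was -1.48 without replicate 1 and -0.47 without replicate 2 of the arrays labelled S1pr2-/-, and -0.48 with normexp background correction. The summed signal of the list was 82.4 and 92.4 against 66.6 and 57.4. Csf3r alone gave 48.5 and 44.2 against 36.9 and 39.4 of it. All 6 genes of the eosinophil list were lower without overlap, against 21.8% of all tested probes, with a median of -4.50 (-2.51 with normexp). None passed after adjustment. One of the 6, Siglecf, is also in the alveolar macrophage list. It was at -0.15, and a second probe of it overlapped at 0.05. The part of these granulocytes in the Ccr1 value was not tested.

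Ccr1, Ccr2, Ccr9 and Ccrl2 all lie on chromosome 9, where Ccr1l1 and Ccr3 separate Ccr1 from Ccr2 in the RefSeq annotation of GRCm38.p6. The difference of Ccr1l1, a Ccr1-like gene, was -0.23 without overlap. Ccr3, the eotaxin receptor of eosinophils, had 0.752 and 2.25 in wild-type, compared with 0.0448 and 0.0775 in the other genotype, a difference of -4.47 (adjusted p = 0.509). The differences of these 4 neighbours ran from -4.47 for Ccr3 to 0.08 for Ccr2. RefSeq promoter windows, from 250 bases before to 50 after an annotated start, were at hand for 5 of the 7 members (8 windows). Those of Ccr1 and Ccr2 are shown as those of 2 near neighbours, 1 without and 1 with overlap between genotypes, with capitals for a match to GAGGAA of PU.1, 1 of 3 motifs searched on both strands.
Ccr1 (chr9:123968643-123968942, strand -): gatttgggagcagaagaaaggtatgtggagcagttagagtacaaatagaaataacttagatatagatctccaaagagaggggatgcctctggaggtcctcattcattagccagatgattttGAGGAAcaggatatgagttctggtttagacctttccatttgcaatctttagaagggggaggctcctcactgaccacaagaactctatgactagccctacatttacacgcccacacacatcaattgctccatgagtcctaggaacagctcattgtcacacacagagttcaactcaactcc
Ccr2 (chr9:124101933-124102232, strand +): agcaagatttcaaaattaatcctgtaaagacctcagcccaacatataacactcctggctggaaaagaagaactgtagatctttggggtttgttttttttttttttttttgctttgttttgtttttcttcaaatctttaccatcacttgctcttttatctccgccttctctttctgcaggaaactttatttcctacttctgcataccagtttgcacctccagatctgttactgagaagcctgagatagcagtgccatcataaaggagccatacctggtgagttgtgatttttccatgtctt
The Ccr1 window held 1 match to the PU.1 letters and the Ccr2 window none to any of the 3, the others being TTCNNNGAA of STAT factors, where N is any base, and TGANTCA of AP-1. Of all 32851 promoter windows in the table, 28.3% held the PU.1 letters, 8.30% those of STAT factors and 7.81% those of AP-1. Among the other 6 windows, 1 of Ccr6 held 2 matches to the STAT letters and 1 to those of PU.1, and the rest held none. A match is a run of letters and not a measured binding site.

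Ccr10 had a difference below 0 with a wide interval, from a signal near the floor. The study lists it among the genes it found lower on these same arrays, so its direction here is not independent evidence. Its relative signal was 0.0294 and 0.0203 in wild-type samples, compared with 0.0185 and 0.00727 in those labelled S1pr2-/-. The closest arrays of the genotypes, 0.0203 and 0.0185, nearly touch, and the last value is below the floor of 0.01. With the floor, the difference was -0.85 ± 0.407 (SE, n = 2; limma, 95% interval -2.08 to 0.39, adjusted p = 0.583), or 1.80-fold, and without it -1.08, or 2.11-fold (adjusted p = 0.618). The processed signals behind these values were 75.1, 50.6, 52.1 and 18.7 units, and 18.7 is near the lowest signal counted as well above background on that array, 14.8. A background correction by the normexp model gave +0.46 when fitted on all spots and -0.53 when fitted on gene probes, and with the percentile taken over detected probes, which raises the floor, it was -0.07 and the genotypes overlapped. The sign of Ccr10 under normexp depended on which spots that model was fitted on. Its ligand Ccl27a, made by skin and other epithelia, overlapped at 0.928 and 0.745 against 0.807 and 0.753, and Ccl28, a mucosal ligand, was below the floor on 3 of 4 arrays. The plasma cell list, whose cells use Ccr10, had 2 of 5 tested genes lower and 2 higher without overlap. The shares of all tested probes were 21.8% and 20.0%. Jchain, the joining chain of secreted antibodies, was higher by 2.13 (unadjusted p = 0.0161, adjusted p = 0.509), and Xbp1 and Derl3, which serve protein secretion, were at -0.29 and -0.49. The part of these cells in the Ccr10 value was not tested.

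Ccr6 varied more between replicates than between genotypes. Its relative signal was 2.34 and 1.46 in wild-type samples, compared with 2.15 and 0.936 in those labelled S1pr2-/-. In each genotype replicate 1 was above replicate 2, by 0.68 and by 1.20 on the log2 scale, and a gap of the latter size or more between the replicates labelled S1pr2-/- was found in 0.828% of tested probes. The difference between genotypes was -0.38 ± 0.543 (SE, n = 2; limma, 95% interval -2.03 to 1.27, adjusted p = 0.816). Without replicate 2 of the arrays labelled S1pr2-/- it was 0.22. Markers of Ccr6-bearing cells split the replicates as well. All 6 genes of the Th17 and gamma delta T cell list were higher in replicate 1 than in replicate 2 of the arrays labelled S1pr2-/-. One of these genes, Il17f, was below the floor on 3 of 4 arrays. The median gap of the 6 genes was 1.46, and Il17a, the cytokine of Th17 cells, was among them. The summed signal of the list was 8.82 and 2.75 on these arrays, against 5.06 and 3.84 in wild-type. Nearly all of it came from Cd163l1 alone, at 8.21 and 2.54 against 4.67 and 3.45. All 7 genes of the B cell list were higher in wild-type replicate 1 than in replicate 2, by a median of 1.44. The split of the arrays labelled S1pr2-/- was not particular to Ccr6-bearing cells. All 6 genes of the NK cell list and 7 of 9 of the T cell list were also higher in replicate 1. Their median gaps were 0.83 and 0.45. All 6 genes of the eosinophil list were lower there, with a median gap of -0.55. The part of any of these cells in the Ccr6 values was not tested. Its ligand Ccl20 was below the floor on all 4 arrays and was not tested.

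**Figure D2:**
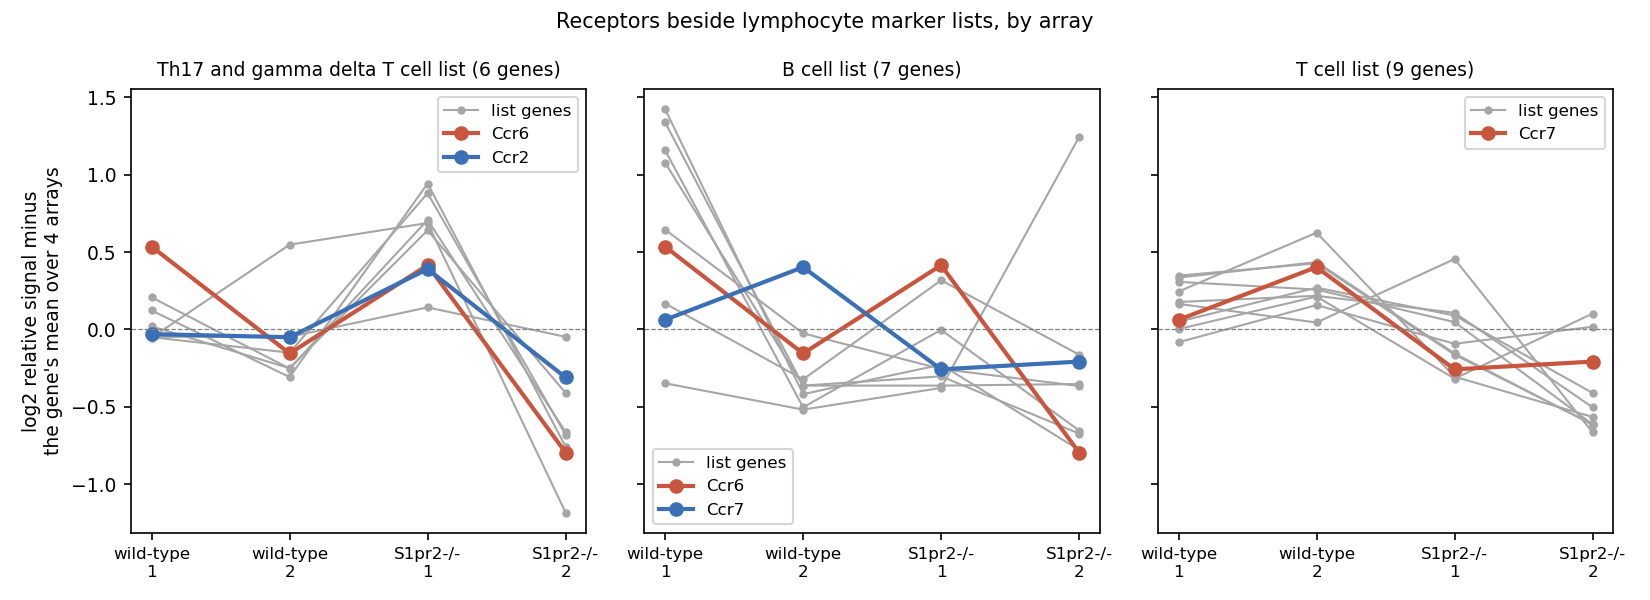
Log2 relative signal of Ccr6, Ccr2 and Ccr7 on each array, minus the mean of the gene over the 4 arrays, beside the genes of 3 lymphocyte marker lists in grey. The Th17 and gamma delta T cell list is higher in replicate 1 than in replicate 2 of the arrays labelled S1pr2-/-. So are Ccr6 and Ccr2. All 7 genes of the B cell list are higher in wild-type replicate 1 than in wild-type replicate 2. Of these, Pax5 and Blnk are highest on an array labelled S1pr2-/-.

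Ccr2, the receptor by which inflammatory monocytes leave the marrow, gave 2.46 and 2.42 in wild-type samples, compared with 3.29 and 2.03 in those labelled S1pr2-/-. The wild-type values lay between the other 2. The difference was 0.08 ± 0.276 (SE, n = 2; limma, 95% interval -0.76 to 0.92, adjusted p = 0.933), and without replicate 1 of the arrays labelled S1pr2-/- it was -0.26. The 2 arrays labelled S1pr2-/- differed by 0.69 on the log2 scale, a size reached by 4.37% of tested probes. Its ligands split the same arrays. Ccl2, the chief monocyte attractant, was 4.65 and 2.39 on the arrays labelled S1pr2-/- and 2.66 and 3.53 in wild-type. Ccl7 was 1.45 and 0.883 against 0.968 and 1.62, and Ccl12 was 0.854 and 0.379 against 0.606 and 0.696. All 3 were higher in replicate 1 than in replicate 2 of the arrays labelled S1pr2-/- and overlapped between genotypes. The monocyte list had 4 of 7 genes lower and 2 higher without overlap, against 21.8% and 20.0% of all tested probes. Its median was -0.10 and its summed signal 26.0 to 28.3 on the 4 arrays. The part of monocytes in the Ccr2 values was not tested.

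Ccr9, the gut-homing receptor, gave 0.126 and 0.0988 in wild-type samples, compared with 0.115 and 0.0848 in those labelled S1pr2-/-. The values alternate between the genotypes. The difference was -0.17 ± 0.226 (SE, n = 2; limma, 95% interval -0.86 to 0.51, adjusted p = 0.795). Its ligand Ccl25 was 0.827 and 0.785 in wild-type and 0.691 and 0.686 on the other arrays. This was lower without overlap, with a difference of -0.23 ± 0.0612 (SE; unadjusted p = 0.0294, adjusted p = 0.515), but a second probe that bears the name, for a noncoding transcript, overlapped at -0.96. Ccrl2 gave 0.527 and 0.441 in wild-type and 0.558 and 0.492 on the arrays labelled S1pr2-/-, which overlapped, with a difference of 0.12 ± 0.134 (SE, n = 2; limma, 95% interval -0.29 to 0.53, adjusted p = 0.763). Chemerin, which it binds and which is encoded by Rarres2, gave 0.0190 and 0.0276 against 0.0299 and 0.0246, and overlapped too.

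Across the list of 16 receptor ligands, 13 were named on the array and 12 tested. Of these, 3 (Ccl3, Ccl9 and Ccl25) were lower without overlap and none was higher, and 1 (Ccl25) reached an unadjusted p under 0.05, beside 21.8% and 20.0% of all tested probes without overlap and 5.59% lower at that p. Only the lower counts in the list are near this background, since none was higher without overlap. The median was -0.17 with 10 of 12 below 0, beside 13752 of all 27158 tested probes. No ligand passed after adjustment.

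**Figure D3:**
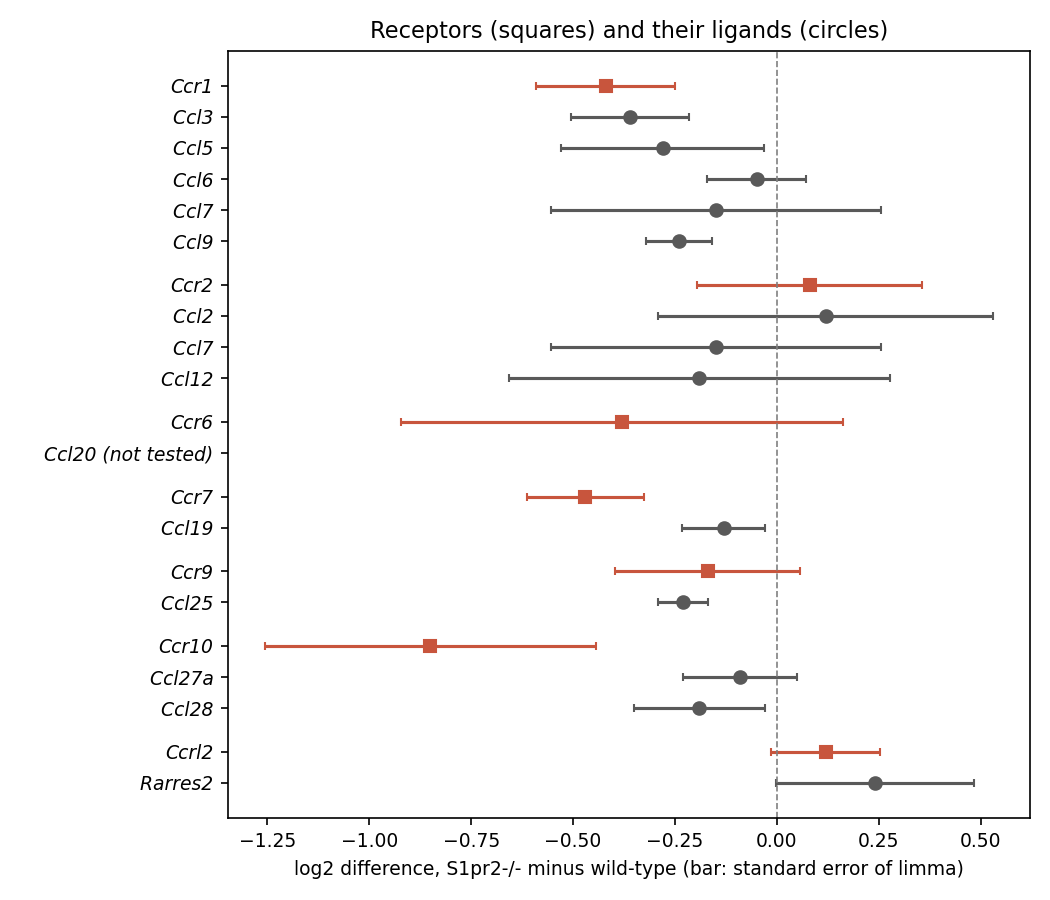
Difference between genotypes for each receptor (squares) and for its ligands (circles below it), with the standard error from limma as bars. Ccl7 appears under both of its receptors, and Ccl20 was not tested. The plotted ligand probes, 1 per gene, lie between -0.36 and 0.24.

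Of the 6 other scavenging and chemerin receptors listed, 3 (Ackr1, Ackr2 and Cmklr1) were tested and all overlapped between genotypes. Ackr1 was below the floor on all 4 arrays, so its values were set equal and its overlap was fixed in advance. Cmklr1, the signalling receptor of chemerin, had the largest value, 0.48 (adjusted p = 0.704). Its wild-type replicate 1, at 0.00941, was also below the floor. All 25 genes of the signalling list, which holds the G proteins, kinases, arrestins and regulators downstream of the receptors, were tested. Of these, 6 were lower and 6 higher without overlap, with a median of -0.02, and none passed after adjustment. These counts are near the shares of all tested probes, 21.8% lower and 20.0% higher. Rgs1 and Rgs16, which shorten G protein signals and so blunt chemotaxis, were among those lower. Rgs1 was 1.20 and 1.90 in wild-type and 1.03 and 0.813 on the arrays labelled S1pr2-/- (difference -0.72, adjusted p = 0.548), and Rgs16 was 0.0608 and 0.0733 against 0.0479 and 0.0410 (difference -0.59, adjusted p = 0.509). Ptk2b, the kinase PYK2, was 4.25 and 4.44 against 5.06 and 5.69 (difference 0.31, adjusted p = 0.518), and Pik3r5, a regulatory subunit of the chemokine-driven lipid kinase, was 3.69 and 3.60 against 4.36 and 4.60 (difference 0.30, adjusted p = 0.509). These 2 were higher on both arrays labelled S1pr2-/-. Grk5, a receptor kinase, and Arrb1, an arrestin, were also higher without overlap, at 0.18 and 0.17.

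**Figure D4:**
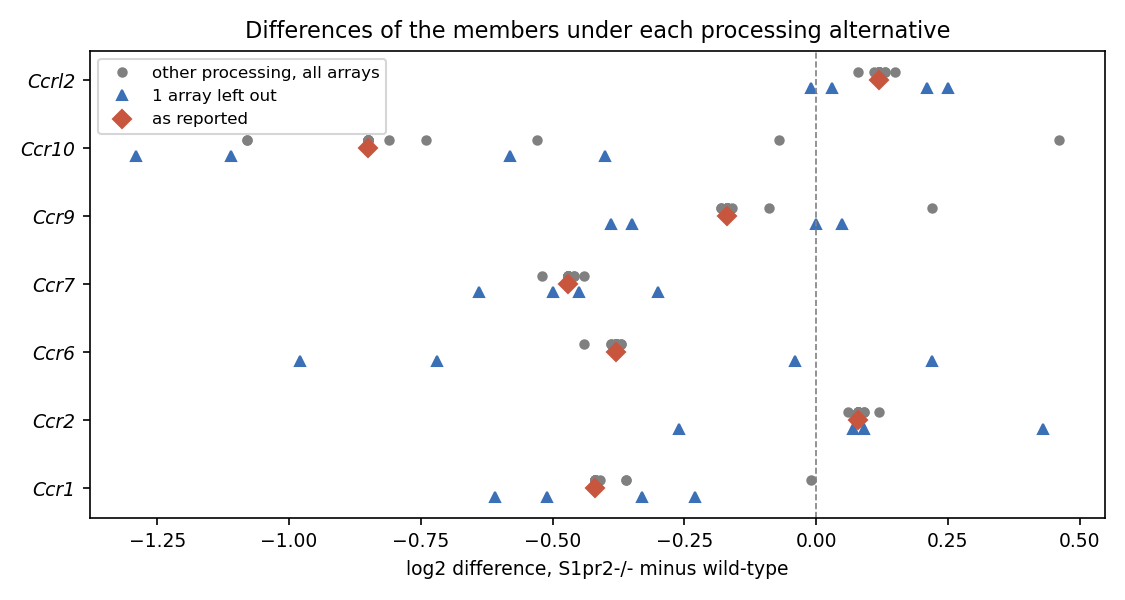
Difference of each member as reported (diamonds), under other processing of all 4 arrays (circles) and with 1 array left out (triangles). Ccr1 and Ccr7 stay below 0 throughout, Ccr7 between -0.64 and -0.30, while the values of Ccr2, Ccr6, Ccr9, Ccr10 and Ccrl2 fall on both sides of 0.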

How the data were processed

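Total RNA of BALF cells was hybridised to Agilent 4x44k mouse arrays in 1 colour. The authors deposited scanner output, whose processed signal is a background-corrected intensity from Feature Extraction (version 11.0.1.1 in the file headers, 10.7.3.1 in the methods), and a table of log2 values, which the deposited numbers show to be the same signals scaled to the 75th percentile and centred on the wild-type mean, with all 39359 probes compared within 0.01 once each column's median offset was removed. Its column medians were 0.0227, -0.0227, -0.0579 and -0.0344. All 4 arrays were on 1 slide with 1 scan time, so no batch could be tested.

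Here the intensity of each gene probe was divided by the 75th percentile of its array (2489 to 2817 units), set to at least 0.01 and log2-transformed. Outlier-flagged spots were left out (115 to 273 of 43020 per array), and spots of a probe were averaged. Probes with a value on every array were fitted where a share over 0.5 of their spots passed the scanner's background flag in both samples of 1 genotype or of both, using limma 3.58.1 in R 4.3.3, with Benjamini-Hochberg adjustment. The number of arrays limits the precision. Genes were named through RefSeq (69.6% of probes). For list genes the probe with the highest mean was used. The text names every member, and of each list genes without overlap, largest first, together with ligands set beside their receptor and marker genes chosen after their values were seen. The members and lists were chosen with earlier results of these data known. The fit was tested on simulated data. Alternatives covered normalization, background correction, floor, filters, variance model, the methods' test, replicate block and leaving out each array.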

Additional observations from a re-analysis of the deposited data

How the results depend on the processing

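No member passed an adjusted p of 0.05 under any of 17 alternatives, of which 13 used all 4 arrays. Directions held for Ccr1 and Ccr7 in all of them. The planned normexp background correction, fitted on all spots, turned Ccr9 to 0.22 and Ccr10 to 0.46, moved Ccr1 to -0.01, and left 1 member lower without overlap and 0 lower at an unadjusted p under 0.05. Its ligand and signalling lists had 0 genes lower and the signalling list 0 higher at that p, with medians of 1.03 for the atypical receptors and -0.08 for signalling. It also shifted the median of all probes by 0.194. On S1pr2-/- replicate 1 this fit gave a mean background of -418, against 4.72 to 8.15 on the others, and the array held a control spot with a local background of 9414. A fit on gene probes alone, chosen after seeing these values, gave 6.77 on that array, -0.18 for Ccr9, -0.53 for Ccr10 and -0.36 for Ccr1. It put 3 members, 3 ligands and 2 signalling genes lower at an unadjusted p under 0.05. It put 5 ligands and 3 members lower without overlap, against 25.2% of all probes. The medians were -0.08 (atypical) and -0.01 (signalling). This fit called 1 probe lower and 1 higher of all probes after adjustment.

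At an unadjusted p under 0.05, 0 members were lower with the percentile over detected probes. With it, Ccr10 was at -0.07 and overlapped, which left 2 members lower without overlap, against 17.6% of all probes. Without the filter on dim probes or with the methods' t-test, 0 members were also lower at that p. With the replicate block in limma 2 were, 1 of them, Ccr10, over 1.5-fold. The replicate numbers mark no known shared source (correlation of same-numbered deviations 0.187 over 2 pairs), so the block is given only here. It left 0 signalling genes lower at that p, and 0 probes passed after adjustment.

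Ligands lower at that p numbered 0 with the authors' log2 table, without a floor and with probes well above background on all arrays, and 2 with a trended variance, and 5 ligands did not overlap in the authors' table. The atypical median was 0.09 in that table and without a floor, and 0.15 with probes well above background on all arrays. The signalling median was -0.01 with quantile, cyclic loess and detected-probe scaling and -0.04 over all probes of a gene. Signalling genes lower at that p numbered 0 with quantile normalization and 2 with detected-probe scaling and without the filter, where 1 was higher.

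With 1 array left out, where the lone array is assumed to vary like the others, the differences ranged from -0.61 to -0.23 (Ccr1), -0.26 to 0.43 (Ccr2), -0.98 to 0.22 (Ccr6), -0.64 to -0.30 (Ccr7), -0.39 to 0.05 (Ccr9), -1.29 to -0.40 (Ccr10) and -0.01 to 0.25 (Ccrl2). The reversed values were 0.00 for Ccr9 without wild-type replicate 1, -0.01 for Ccrl2 without wild-type replicate 2, -0.26 for Ccr2 without S1pr2-/- replicate 1, and 0.22 for Ccr6 and 0.05 for Ccr9 without S1pr2-/- replicate 2. Members without overlap numbered 3 to 6 lower and 0 to 2 higher, where 2 arrays stand against 1 and 33.1% to 39.2% of all probes were lower and 30.8% to 37.5% higher without overlap, and those past an unadjusted p of 0.05 0 to 1 in each direction, 0 to 1 of them lower by over 1.5-fold. Ligands without overlap numbered 5 to 6 lower and 0 to 3 higher, and 0 to 2 were lower at that p (median -0.24 to -0.13). Atypical receptors numbered 0 to 1 on each count (median -0.02 to 0.10). Signalling genes numbered 6 to 12 lower and 7 to 12 higher without overlap, 0 to 2 lower and 0 to 3 higher at that p (median -0.03 to 0.02).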
